A study of Spinacia oleracea with 12 samples.

Results

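A set of 200 spinach genes was read in leaf and nearly silent in root, with similar mean log2 leaf levels under both nitrogen supplies. The genes were chosen by their measured values from the 25495 genes of the expression table. A gene had to lie below 0.5 FPKM (fragments on a gene, scaled to its length and to the library total) in each of the 6 root libraries. The means of log2(FPKM + 1) in high N leaf and low N leaf had to differ by less than 0.5 in either direction. Of the 5293 genes that met both limits, 2480 were at 0 in all 12 libraries, 326 had a mean leaf FPKM of at least 1, and the 200 with the highest mean over the 6 leaf libraries were kept.

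The libraries came from plants of the spinach variety Banjo that were 6 weeks old. The plants had been fed calcium nitrate, at 200 ppm N in the high N supply and at 50 ppm in the low N supply. Calcium was balanced with calcium chloride, so chloride was not held equal, and the paper gives the remaining elements as constant. The labels give 3 independent plants for the RNA, without saying whether leaf and root came from the same plants, and the 3 libraries in each of 4 groups were assigned by the library titles. Other fields of the sample records name a different tissue or N supply for the root libraries and for low N leaf, and the titles were followed. Whole organs were sequenced, so fewer cells of a type and less RNA per cell cannot be told apart in any value below.

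Leaves hold the photosynthetic apparatus, which is built from light-harvesting proteins, photosystems and the enzymes of carbon fixation in chloroplasts, while roots in the dark keep these genes nearly off. A large part of the nitrogen of a leaf sits in chloroplast proteins, and the level of many such genes follows the nitrogen supply. The study's text and tables give a name to 2 of the 200 genes, so nearly all are described here by identifier and value, with no role assigned. Spo06974 matched a carotenoid 9,10(9',10')-cleavage dioxygenase, a class of enzyme that cuts carotenoids into smaller apocarotenoids. Spo18318 matched the sodium transporter HKT1, which in Arabidopsis takes sodium out of the xylem.

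The tissue labels were checked with genes that the study's tables name. Of 13 genes for light harvesting, photosystems and chloroplast metabolism, 12 had every leaf library above every root library. The exception was a carbonic anhydrase (Spo10751), with 91.2 to 181 FPKM in root. The summed level of all 13, that gene included, was 22676 to 32961 FPKM in leaf against 147 to 282 in root. None of the 13 was among the 200 genes. Chlorophyll a/b-binding proteins CB2A and LHCB3 and the photoprotective protein PSBS lay below the root limit and differed by N in leaf by more than the selection allowed, with log2 differences (high N minus low N) of -0.85 in LHCB3 and -0.75 in PSBS and a value further from 0 in CB2A. The photosystem proteins PSAL, PSAG, PSBP and PSBQ were within the N limit and above 0.5 FPKM in at least 1 root library. Of 8 genes listed for uptake and root development, 5 had every leaf library below every root library, and HKT1 (Spo18318) had every leaf library above every root library and was itself among the 200. The marker lists came from genes that the study had called by N in these libraries, so they check the tissue and say nothing independent on N. The 12 libraries held 15627994 to 18608172 fragments on genes, and a gene of 1 kb with 3 fragments had an FPKM of 0.161 to 0.192.

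Few genes carried most of the output. The mean leaf FPKM had a median of 18.6 and quartiles of 7.64 and 50.6, and it was at least 1000 in 6 of the genes, at least 100 in 31 and at least 10 in 137. Over all genes of the table, 100 reached a mean leaf FPKM of 1000, and 993 reached 100. The highest gene alone held 20.1% of the summed mean leaf FPKM of the 200, and the 10 highest held 69.7%. Gene length, worked back from the FPKM values, had a median of 1559.5 bases against 1550 for the 16522 genes with a mean leaf FPKM of at least 1.

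**Figure D1:**
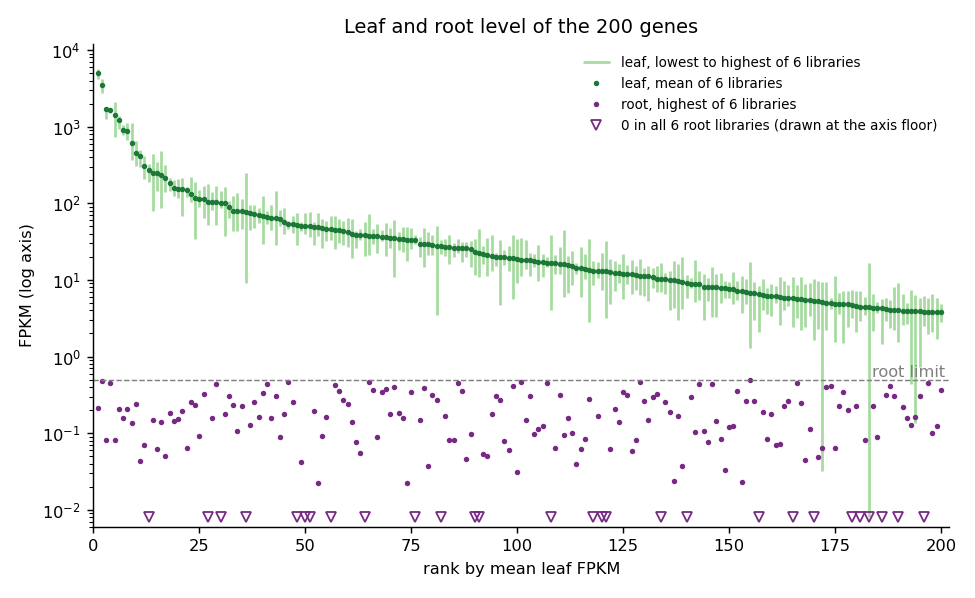
Leaf and root FPKM (log axis) of the 200 genes in order of mean leaf FPKM, with green points for the leaf mean, bars from the lowest to the highest of 6 leaf libraries, purple points for the highest of 6 root libraries and triangles for the 28 genes at 0 in all root libraries. Leaf means fall from 4976 to 3.77 FPKM while the root values show no matching fall, and the bar of the 1 gene with a leaf library at 0 ends at the lower edge.

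The top gene, Spo24682, had a leaf FPKM of 4910, 5361 and 5022 under high N and 4763, 4194 and 5606 under low N. The group means were 5098 ± 235 and 4854 ± 710 FPKM (SD, n = 3), and the groups overlapped. Spo10529 followed with 2735, 3916 and 3059 FPKM under high N and 3706, 4165 and 3218 under low N. Its groups overlapped as well, with the lowest value in high N leaf replicate 1. Spo24683, whose identifier follows that of the top gene, was next with 1248, 1772 and 1808 FPKM under high N and 1746, 1781 and 1710 under low N.

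Spo16925 was the steadiest of all 200 genes. It had 1493, 1752 and 1641 FPKM under high N and 1640, 1689 and 1634 under low N, a spread of 1.17-fold between the highest and the lowest leaf library. Spo21203 reached a similar level, with a mean of 1378 ± 687 FPKM under high N and 1439 ± 262 under low N (SD, n = 3), but its high N libraries ran from 740 to 2105. Similar group means therefore covered both tight and loose sets of replicates. Spo23141 was the last gene above a mean of 1000, with 1145 ± 191 FPKM under high N and 1277 ± 98.2 under low N (SD, n = 3).

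**Figure D2:**
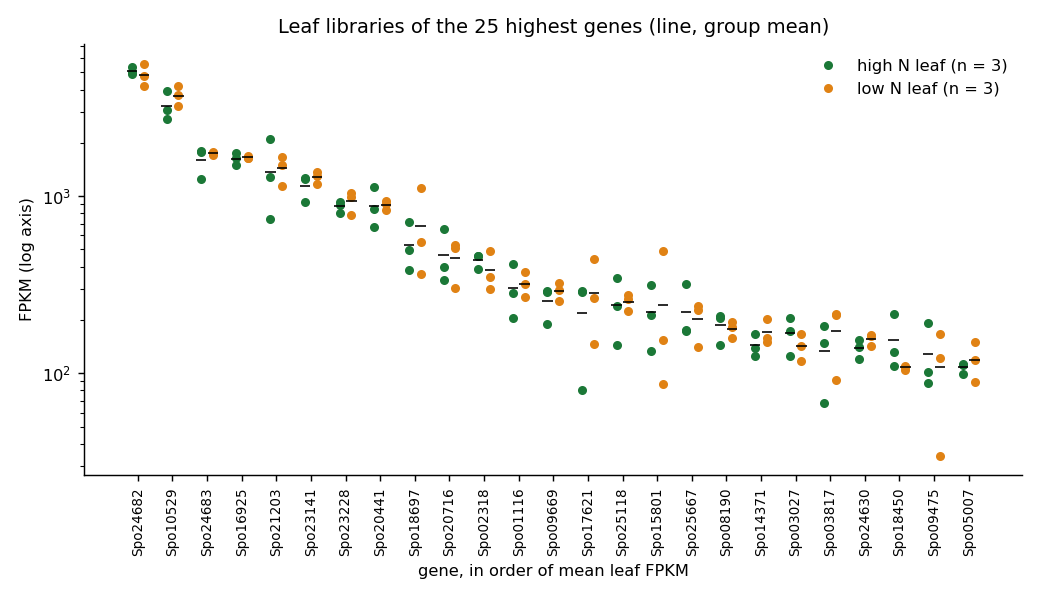
FPKM (log axis) in each leaf library for the 25 genes with the highest mean, with green points for high N leaf, orange points for low N leaf and a black line for each group mean. The points of Spo16925 lie within 1.17-fold of each other, while those of Spo17621 and Spo15801 spread over a wider range within each group.

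In root the genes were traces or absent. Over all 6 root libraries 28 genes had no fragment, 41 had 1 to 3 fragments and 131 had more than 3, and 48 were detected in every root library. The median was 6 fragments over the 6 libraries and the most was 115, in Spo12861. The whole set took 2.87 to 3.74% of the fragments of a leaf library, or 465499 to 684436 fragments, and 0.00236 to 0.00323% of those of a root library, or 388 to 601 fragments.

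The root trace did not follow the leaf level. In successive blocks of 50 genes by rank, the median leaf FPKM was 114, 33.3, 12.0 and 4.87, and the median root FPKM was 0.0532, 0.0644, 0.0307 and 0.0525. The median number of root fragments in these blocks was 6, 7, 5.5 and 6. This is a description of values that the selection limited, and genes above 0.5 FPKM in root had been removed beforehand.

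The ratio of leaf to root was set by the choice of genes and is given without a test. In the 131 genes with more than 3 root fragments, the pooled leaf level was 13.2 to 58691 times the pooled root level, with a median of 254. Spo24682 had 12 root fragments in all, 1 to 3 in each library, and a ratio of 37335 (95% Poisson interval of the root count alone 21373 to 72254, counting error only). Spo24683 gave the highest ratio from 4 root fragments, with an interval of 22923 to 215405. Spo10665, the last gene kept, gave the lowest ratio from 89 root fragments (interval 10.7 to 16.4).

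For the 28 genes at 0 in root, a limit of 3 fragments over the 6 libraries put leaf at least 35.4- to 9215-fold higher. Spo01107 had the highest of these bounds, with 51.4, 97.3 and 151 FPKM in high N leaf and 53.2, 104 and 176 in low N leaf. Spo09669, the highest-ranked gene with no root fragment, had 191, 291 and 287 FPKM under high N and 296, 256 and 322 under low N. Against the limit of 3 root fragments, its leaf level was at least 8178-fold higher. Spo01014 was bounded at 6452-fold, Spo06647 at 6181-fold and Spo23154 at 2420-fold. Absence of these genes from root holds only to this depth.

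At the other end, the highest mean root levels were those of Spo12861, Spo02289, Spo12717, Spo15964 and Spo22017. Spo02289 had 0.470, 0.305 and 0.359 FPKM in high N root and 0.431, 0.226 and 0.259 in low N root, against 6.42 to 18.9 in leaf. These genes were all in the lower-ranked part of the set, from rank 107 for Spo22017 to rank 173 for Spo12717.

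The limits of the selection passed close to several genes. Spo15964 reached 0.499 FPKM in a root library, Spo10529 0.478 and Spo28381 0.471, and just outside were Spo27324 at 0.504, Spo26264 at 0.510 and Spo02513 at 0.515. By N difference, Spo06159 (0.49), Spo18783 (-0.49) and Spo14852 (-0.49) were just inside, and Spo04404 (-0.51), Spo17203 (0.53) and Spo05096 (-0.53) just outside. By rank, Spo04195 with a mean leaf FPKM of 3.82, Spo23266 with 3.79 and Spo10665 with 3.77 were the last kept, and Spo30012 with 3.73, Spo09906 with 3.55 and Spo25755 with 3.52 the first left out. Among the 337 genes under the root limit and at or above the level of Spo10665, 137 (40.7%) had an N difference of 0.5 or more and so were left out. Over all 16522 genes with a mean leaf FPKM of at least 1, a lower level, the N difference was below 0.5 in 80.3%.

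The difference between N supplies in leaf was bounded by the selection, and its distribution within the bounds was as follows. By means of log2(FPKM + 1), 76 genes were higher and 124 lower under high N, with a median of -0.09 and a range of -0.49 to 0.49. The median over all 16522 genes with a mean leaf FPKM of at least 1 was -0.04. Differences were within 0.1 for 52 genes and within 0.25 for 129. The excess of lower values depended on single libraries. Without low N leaf replicate 3, 102 of the genes were higher and 98 lower, with a median of 0.01. Without high N leaf replicate 1, 93 were higher and 107 lower, with a median of -0.03. After median-of-ratios scaling, 92 were higher and 108 lower.

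The selection set no direct limit on the spread of replicates, whereas it did limit the N difference. The N limit and the ranking by mean can both bear on that spread, so it is not independent of the selection. The pooled SD of log2(FPKM + 1) within groups had a median of 0.44, and the N difference was smaller than that SD in 169 genes and not smaller in 31, a split that the limit of 0.5 on the difference largely fixed. The median SD was 0.37 in high N leaf and 0.40 in low N leaf. Over all 16522 genes the median pooled SD was 0.29, and it was 0.28 in the 12799 genes at or above the level of the last gene kept. It was larger in the lower-ranked blocks of 50, at 0.36, 0.40, 0.47 and 0.51 in order.

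**Figure D3:**
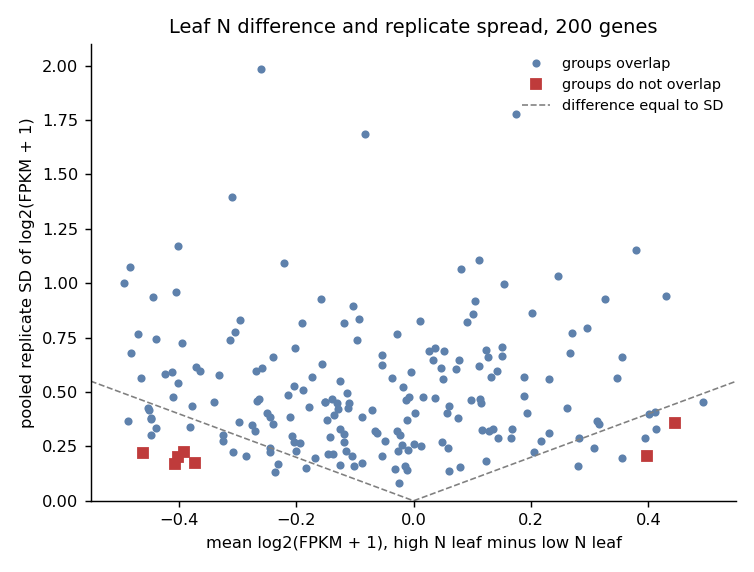
Difference of mean log2(FPKM + 1) between high N leaf and low N leaf for each of the 200 genes, against the pooled SD of replicates on the same scale, with squares for the 7 genes whose groups do not overlap and dashed lines where difference and SD are equal. Most points (169) lie above the lines, and the x axis is limited to differences below 0.5 by the selection.

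No overlap between high N and low N leaf libraries was seen in 7 genes, against 17.8% of all genes with a mean leaf FPKM of at least 1, a contrast that the selection used. Named here after their values were seen, except for Spo18450, these genes stood on both sides. Spo18450 had 217, 132 and 111 FPKM under high N and 109, 105 and 109 under low N. High N replicate 1 stood apart there, and the nearest libraries of the 2 groups nearly met. Spo07707 was the other gene on the higher side, with 15.5, 12.7 and 13.1 FPKM under high N and 9.33, 8.92 and 12.6 under low N. On the lower side were Spo24396, Spo05037, Spo18389, Spo03065 and Spo20199. Spo24396 had 63.7, 92.6 and 75.9 FPKM under high N and 94.2, 103 and 108 under low N.

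In limma's fit over the whole table, 0 of the 200 genes had an unadjusted p below 0.05 in leaf, where 11.2% of the 16522 genes did. At an adjusted p below 0.05 the count was 0 among the 200 and 0% of all genes. Nothing is read from these counts, since small differences were the condition of entry. The half-width of limma's 95% interval describes how closely 3 libraries a group fix a difference. The intervals are centred on differences that the selection held below 0.5. Their coverage is therefore not 95% for genes chosen this way, and the counts within bounds were partly fixed by entry. The interval lay within ±0.5 for 9 genes and within ±1 for 114, and its median half-width was 0.71. Spo16925 (-0.46 to 0.40) and Spo06974 (-0.31 to 0.43) were among the 9, and the top gene Spo24682 (-0.47 to 0.63) was not. For the remaining genes the interval reached past the limit of 0.5 that their mean difference met. Without low N leaf replicate 1, 22 of the 200 genes had an unadjusted p below 0.05, and so did 12.0% of the 16406 genes then tested.

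Among the genes with the largest N differences inside the bounds, Spo06159 had 69.1, 51.2 and 38.7 FPKM under high N and 25.1, 37.4 and 50.9 under low N. Its groups overlapped. Spo18450, Spo09475, Spo22506 and Spo20415 came next on the higher side, with differences down to 0.41. On the lower side Spo18783 had 14.4, 14.2 and 11.5 FPKM under high N and 5.57, 30.7 and 38.0 under low N. One low N library lay below all high N libraries and the others lay above them. Spo14852, Spo03298, Spo23000 and Spo16849 followed, with differences of -0.49 to -0.47.

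Some genes met the limit with replicates far apart within each supply. Spo06647 had the highest pooled SD, 1.98, with 11.2, 107 and 42.3 FPKM under high N and 248, 37.7 and 9.13 under low N. Its highest and lowest libraries were both of low N leaf. Spo03404 had 16.9, 1.09 and 0 FPKM under high N and 6.29, 1.92 and 0.221 under low N, and was the 1 gene with a leaf library at 0. Spo23663 had 0.260, 6.43 and 7.04 FPKM under high N and 0.0321, 9.44 and 7.30 under low N, low in replicate 1 of both supplies. Its highest leaf value was 294 times its lowest, the largest such ratio among genes with no 0 in leaf. Spo10699 and Spo15964 were the others in the top 5 by SD.

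There were 4 genes below 0.5 FPKM in at least 1 leaf library, the level that defined near silence in root. They were Spo03404, Spo23663, Spo03298, with 0.136 FPKM in high N leaf replicate 2, and Spo23010, with 0.437 FPKM in high N leaf replicate 1. The ratio of the highest to the lowest leaf library was above 2 in 130 genes and above 4 in 36, and below 1.5 in 20, with a median of 2.36. The steadiest genes by SD after Spo16925 were Spo22017, Spo06974, Spo05708 and Spo04980. Spo05708 had 31.3, 32.1 and 34.9 FPKM under high N and 29.8, 31.5 and 38.3 under low N, and no fragment in root.

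Single libraries stood out across the set. Low N leaf replicate 3 held the highest value of 80 genes and the lowest of 12, and high N leaf replicate 1 and low N leaf replicate 1 held the lowest value of 60 and 53. The median deviation from the mean over leaf libraries was 0.24 (log2) in low N leaf replicate 3 for the 200 genes and 0.12 for all genes with a mean leaf FPKM of at least 1. The deposited values were not scaled between libraries beyond the total, and the size factor of that library was the highest of the 6, 1.11 against 0.91 to 1.05 in the others. After median-of-ratios scaling it held the highest value of 45 genes and high N leaf replicate 2 that of 54. The lowest values stayed with replicate 1 of each supply, in 64 genes for high N and 57 for low N.

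**Figure D4:**
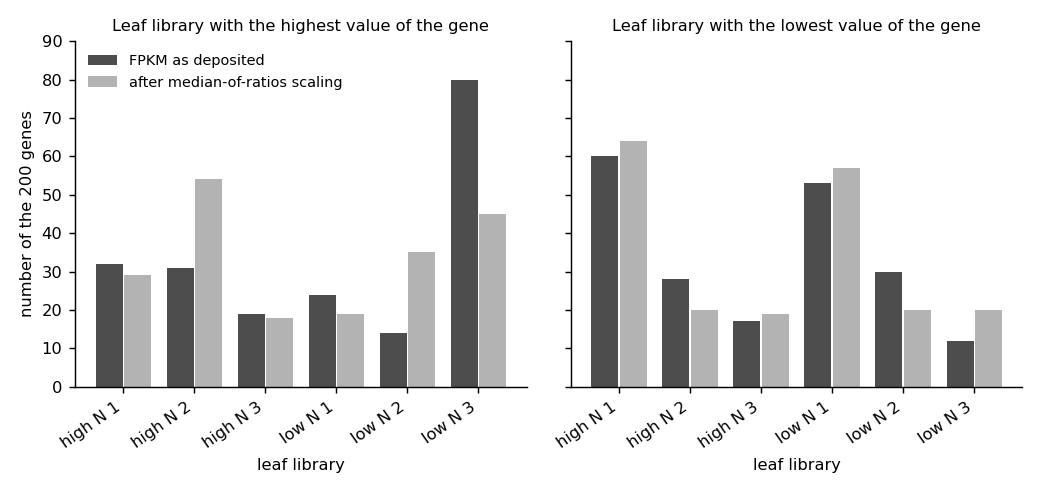
Number of the 200 genes (y axis) whose highest value (left) or lowest value (right) fell in each of the 6 leaf libraries, with dark bars for FPKM as deposited and light bars after median-of-ratios scaling. The 80 highest values of low N leaf replicate 3 drop to 45 with scaling, and replicate 1 of each supply holds the most lowest values under both.

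Pairs of replicates show the same spread. Low N leaf replicates 1 and 3 differed by more than 2-fold in 34.5% of the 200 genes, with 19 higher in replicate 1 and 50 in replicate 3. In all 12799 genes at or above the level of the last gene kept, that share was 14.9%. High N leaf replicates 1 and 2 differed by more than 2-fold in 25.5% of the 200 genes and in 9.24% of all genes at that level. For the 200 genes the lowest share was 15.0%, in high N leaf replicates 2 and 3, where it was 6.67% of all. Over all genes at that level the lowest share was 6.37%, in high N leaf replicates 1 and 3.

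The first principal component of the leaf deviations from the gene means held 38.4% of the variance and set low N leaf replicate 1 (0.72) against low N leaf replicate 3 (-0.61). The second held 33.9%. At the top of the ranking, Spo18697 had 383, 714 and 499 FPKM under high N and 1118, 552 and 363 under low N. Spo15801 was similar, with 134, 316 and 213 FPKM under high N and 488, 155 and 86.4 under low N. Both were highest in low N leaf replicate 1, as was Spo06647. Spo17621 ran the other way, with 293, 80.3 and 287 FPKM under high N and 146, 266 and 440 under low N. These genes were picked out after their values were seen, and none of their patterns separated high N from low N.

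Some of the genes carried neighbouring identifier numbers, and the pairs named below were picked after their values were seen. There were 9 pairs of consecutive numbers, which took in 17 genes, and no genome position was used to place them. Spo24682 and Spo24683 hold ranks 1 and 3. Spo20538 had 9.29, 12.8 and 16.7 FPKM under high N and 7.38, 10.1 and 22.2 under low N. Its neighbour in number, Spo20539, had 10.9, 17.4 and 23.5 FPKM under high N and 9.66, 12.2 and 28.4 under low N, so the 6 libraries fell in the same order in both genes. Spo01107 and Spo01108 ranked 27 and 33. Spo01108 had 61.1, 64.1 and 73.5 FPKM under high N and 43.4, 114 and 125 under low N. Sequences were not analysed here, so whether these neighbours are near-identical copies, and how reads that fit both were counted, was not tested.

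The comparison of N supplies in root was the 1 contrast between groups that the choice of genes had not used, apart from the common ceiling of 0.5 FPKM. Of the 200 genes, 120 had a fragment in at least 3 root libraries and were tested, and 80 were not. At an unadjusted p below 0.05, 5 of the 120 (4.17%) were called, against 10.8% of all 21193 genes tested. With no variance trend in the fit 13 of the 120 were called, against 10.1% of all, so the lower share among the 120 did not hold there. The 120 all lay below 0.5 FPKM in root while the 21193 had no such ceiling. The part of low counts in these shares was not tested. At an adjusted p below 0.05 the count was 0, against 0.0142% (3 genes) of all. Non-overlapping groups were found in 13 of the 120 genes, 10 lower and 3 higher under high N, against 15.2% of all. Among the lower ones, Spo12385, also 1 of the 5 called, and Spo18701 had fragments in low N root only. They passed the filter of 3 libraries through that group alone, which fixed their direction and lack of overlap. Nothing is read from the split. The median difference of log2(FPKM + 0.1) was -0.07 for the 120 genes and -0.05 for all genes tested, with 65 of the 120 lower and 55 higher. With each of low N root replicates 2 and 3 left out the median of the set was 0.01. Among all genes called at the unadjusted threshold, 41.0% were higher under high N, and 51.2% were after median-of-ratios scaling.

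The root calls rested on few fragments, and the size of the differences depended on the pseudocount. With 1 in place of 0.1 they were -0.36 in Spo06974, -0.27 in Spo18318, -0.33 in Spo22017 and 0.21 in Spo03511, each in the same direction as the values below. Spo06974, the carotenoid cleavage dioxygenase, had 0.132, 0 and 0.139 FPKM in high N root and 0.291, 0.467 and 0.427 in low N root, from 5, 0, 5, 12, 20 and 16 fragments. All low N libraries were above all high N libraries, with a log2 difference of -1.47 (95% interval -2.55 to -0.38, limma adjusted p = 0.391). Its leaf values were 50.2, 59.5 and 55.9 FPKM under high N and 46.7, 54.9 and 57.5 under low N, with one of the 5 lowest replicate SDs of the set. The pooled leaf level was 218 times the pooled root level, and the N groups overlapped in leaf.

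Spo18318, the HKT1 sodium transporter, had 0, 0 and 0.0683 FPKM in high N root and 0.209, 0.115 and 0.393 in low N root, from 0, 0, 2, 7, 4 and 12 fragments. The log2 difference was -1.43 (95% interval -2.52 to -0.33, limma adjusted p = 0.402), and its unadjusted p was above 0.05 without high N root replicate 1, high N root replicate 2 or low N root replicate 3. In leaf it had 48.0, 20.6 and 29.5 FPKM under high N and 41.2, 22.4 and 14.6 under low N, a wider spread than that of Spo06974. The study listed both named genes from their difference in these same root libraries, so their root values are not independent evidence.

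Spo22017 had 0.0707, 0.144 and 0.223 FPKM in high N root and 0.454, 0.437 and 0.428 in low N root, with a log2 difference of -1.18 (95% interval -2.04 to -0.33, limma adjusted p = 0.385). Spo12385 had no fragment in high N root and 2, 2 and 1 fragments in low N root (limma adjusted p = 0.357), and no fold is given for it. It passed the filter of at least 3 root libraries only through low N root. Its direction and lack of overlap were therefore fixed on entry, and nothing is read from its call. Spo03511 was the 1 gene of the 5 on the higher side (log2 difference 1.12, limma adjusted p = 0.429). It had 0.158, 0.322 and 0.133 FPKM in high N root and 0.0580, 0.0558 and 0 in low N root. Its unadjusted p was above 0.05 with a pseudocount of 1 and without high N root replicate 1, high N root replicate 2 or low N root replicate 3. All 5 were short of the adjusted threshold.

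**Figure D5:**
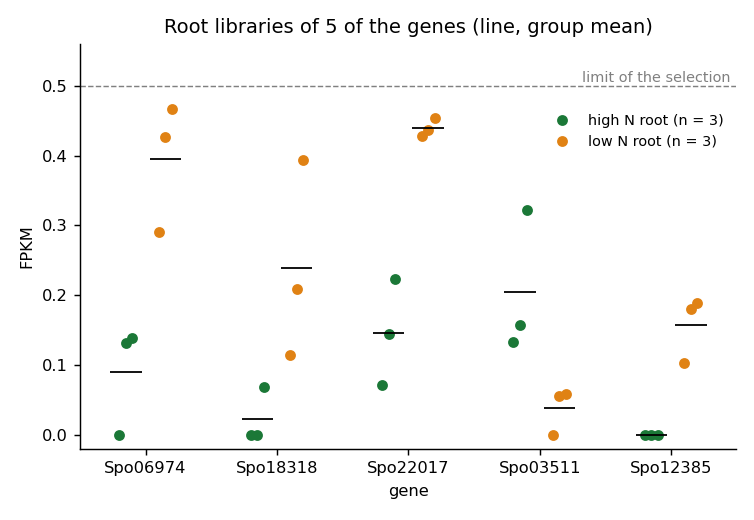
FPKM in each root library (linear axis) for the 5 genes with an unadjusted limma p below 0.05 in root, with green points for high N root, orange points for low N root, a black line for each group mean and a dashed line at the 0.5 FPKM limit of the selection. Groups do not overlap in any of the 5, 4 are lower under high N, and all values lie below 0.5 FPKM. Spo12385 has fragments in low N root only and entered the test through that group, which fixed its direction.

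The same rule with leaf and root exchanged gives a scale for the set. It was met by 5898 genes, and the 200 with the highest mean root FPKM ran from 2334 down to 12.4 FPKM with a median of 31.7. In that mirrored set 1 gene reached 1000 FPKM and 35 reached 100, compared with 6 and 31 among the leaf genes. It took 1.64 to 1.90% of root fragments, below the 2.87 to 3.74% that the leaf genes took of leaf fragments. Both sets were cut by rank at the same number, so these levels are given side by side with no test.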

How the data were processed

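RNA from leaf and root of spinach was sequenced as read pairs in 12 libraries, 3 in each of 4 groups. The authors aligned the pairs to the spinach genome with TopHat and Bowtie, counted them on genes with HTSeq and deposited FPKM, with 0 other columns of values; the submitters' processing notes list HISAT2 and featureCounts instead. FPKM values were multiples of 1 fragment for each gene (all values above 0 came out whole within 0.01 fragment), so fragments and lengths were worked back for 23015 genes (2480 were at 0 throughout). The genes and lists were chosen with earlier results of these data known. Genes named were the 25 highest, those at either end of N difference, replicate SD and root level, the highest without root fragments, those at each limit, those the study names, and those with p below 0.05 in root. In root, limma 3.58.1 (R 4.3.3) was run on log2(FPKM + 0.1) for genes above 0 in at least 3 root libraries. In leaf it was run on log2(FPKM + 1) for genes with a mean of at least 1. Both used eBayes with a variance trend and Benjamini-Hochberg adjustment over all genes tested. The fits were tested on simulated data. Alternatives were other limits, pseudocounts, filters, rankings, median-of-ratios scaling, no variance trend, a replicate block and each library left out; scaling and left-out libraries for the replicate SD and the highest library were chosen after seeing the data. Tables used Python 3.11.15, pandas 2.3.3 and NumPy 2.4.6. The identifiers matched none of the reference annotation, so no sequence or position is given.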

Additional observations from a re-analysis of the deposited data

How the results depend on the processing

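The 200 genes depended on the limits. With a root limit of 1 FPKM 131 of the 200 were kept, and with a leaf N difference below 0.25 it was 129. Other limits, scaling, pseudocount and rankings kept 139 to 198, and leaving out each library kept 154 to 195. The number of genes meeting both limits was 5240 to 5416 with each library left out. Genes called over the whole table at an unadjusted p below 0.05 numbered 1310 to 1975 in leaf and 1210 to 3355 in root with each library left out, against 1850 and 2288. Without high N root replicate 1 or 2 the root count was 1440 or 1210. None of the 200 genes passed an adjusted p below 0.05 in the 12 leaf or 12 root alternatives, and the count at an unadjusted p in leaf was 0 to 22. At an adjusted p below 0.05, 41 genes of the whole table passed in leaf without low N leaf replicate 1, against 0 with all libraries in the filtered fits and 2 with no filter on low values, and 0 to 7 passed in root over the alternatives. A filter at a mean root FPKM of 1 left 0 of the 200 to test. With no variance trend 13 of 120 had an unadjusted p below 0.05 in root, against 10.1% of all genes. Deviations of libraries with the same replicate number correlated at -0.01, 0.08 and 0.27 in leaf and 0.10, -0.02 and 0.10 in root. Libraries with unlike numbers correlated at -0.23 to 0.13 in leaf. These few values do not settle whether replicate numbers pair the samples. A fit with a replicate block called 2208 genes in leaf, with 3 of the 200, and 2272 in root, with 5 of 120. The median replicate SD of the 200 genes was 0.36 to 0.49 with each leaf library left out and 0.43 after scaling, against 0.26 to 0.30 and 0.27 over all genes with a mean of at least 1. Root values are limited by depth, with a median of 6 fragments a gene.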
